A study of Mus musculus with 18 samples.

Results

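Hapln1, Gpr83, 6030419C18Rik and Pira1 are 4 of the 24054 genes in the pituitary table and were chosen because their RNA was among the furthest below WT in the pituitary of THRB K146Q mice. The choice rested on the pituitary libraries, so the pituitary values are given here as a description with no test, and the tests compare hypothalamus and thyroid libraries, which the choice did not use. In fits of all 18 libraries the pituitary libraries still enter the filter and the estimate of the spread, and the same tests are therefore also given without them. RNA-Seq was done on hypothalamus, pituitary and thyroid of mice 1, 2 and 43 (WT) and mice 60, 62 and 83 (K146Q), which gave 18 libraries, 3 for each tissue and genotype. Both groups were untreated males of the C57BL/Ntac strain aged 3 months. K146Q mice were homozygous for a whole-body knock-in, an A to C change that replaces lysine with glutamine in the DNA-binding region of thyroid hormone receptor β (THRB) and removes a site for attachment of SUMO. The change lies in all THRB isoforms of every tissue, so an effect within the pituitary and one that reaches it from elsewhere cannot be told apart in these groups. WT mice came from the same substrain, to which the mutant line had been backcrossed at least 3 times.

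The 4 genes encode proteins of different kinds. Hapln1 encodes a link protein that ties proteoglycans of the aggrecan family to hyaluronan in the extracellular matrix, and in brain such matrix surrounds neurons as perineuronal nets. Gpr83 encodes a G protein–coupled receptor that was first found as a glucocorticoid-induced transcript, is expressed in hypothalamus, and has been proposed as a receptor for the peptide PEN, which is cut from the proSAAS precursor (Pcsk1n). 6030419C18Rik carries the RefSeq symbol Insyn1, inhibitory synaptic factor 1, a protein of the postsynaptic side of inhibitory synapses. Pira1 encodes an activating paired immunoglobulin-like receptor of myeloid and B cells, which signals through Fcer1g, and its inhibitory counterpart is Pirb. The anterior pituitary holds hormone cells of several kinds, among them thyrotrophs, whose TSH subunit gene Tshb is held down by thyroid hormone through THRB.

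All positions are on GRCm38, the assembly that mm10 also names, and the gene extents are those of RefSeq. Hapln1 spans chr13:89540529-89611832 on the plus strand, and its longest coding transcript in GENCODE M21 has 5 exons and 5715 bases. Gpr83 spans chr9:14859880-14870789 on the plus strand, with 4 exons and 3586 bases. 6030419C18Rik spans chr9:58488603-58499780 on the plus strand, with 3 exons and 2139 bases. Pira1 spans chr7:3731626-3739943 on the minus strand, a place where GENCODE M21 lists a polymorphic pseudogene, Gm15922, with 10 exons and 3462 bases. Gm8546 overlaps Hapln1 on the opposite strand, and no other gene overlaps a member in that annotation.

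Pira1 differs from the other members in how much of its sequence is its own. Of the 3413 different stretches of 50 bases in the transcript at the Pira1 locus, 91.3% also occur in a transcript of another gene, and 83.7% occur in Pira2. The share was 0.308% for Hapln1 and 0 for Gpr83 and 6030419C18Rik. Set side by side without gaps, the transcripts of the Pira1 locus and of Pira2 are both 3462 bases long and differ at 17 positions, an identity of 99.5%. A window of 90 bases in exon 3 is shown because no coding window of that length within an exon holds more differences. It has 7 of the 17, in capitals, of the kind a short read needs to tell the genes apart. The sequence runs in the direction of the gene.
Pira1 locus, chr7:3739187-3739276, minus strand: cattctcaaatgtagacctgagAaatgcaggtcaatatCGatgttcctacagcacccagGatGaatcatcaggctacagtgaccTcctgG
Pira2, chr7:3844349-3844438, minus strand: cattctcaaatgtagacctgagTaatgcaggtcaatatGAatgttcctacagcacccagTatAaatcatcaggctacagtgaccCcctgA
Outside such positions a read fits both genes equally well. A stretch of 495 bases in the coding sequence of Pira2 is letter for letter the same at the Pira1 locus. RSEM, which the submitters' processing notes name, shares such reads out between genes by a model. How reads divided between Pira1 and its near copies is therefore uncertain, and values of Pira1 are given below together with those of its family.

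The windows searched were the 250 bases before each gene's transcript start in the RefSeq promoter set. For Hapln1, Gpr83 and Pira1 that start is downstream of the first base of the gene, so part or all of the window lies within the gene. They were searched on both strands for the half-site that thyroid hormone receptors bind (AGGTCA), a direct repeat of it with any 4 bases between (DR4, which contains the first motif), a site of GATA factors (AGATAA), the core of the cAMP response element (TGACG) and the TATA box (TATAAA). Of the 32851 windows of this length in the reference, 14.0% hold the half-site, 0.0152% the DR4 repeat, 9.99% the GATA site, 17.8% the cAMP response core and 12.4% the TATA box. The only match in the 4 windows was that of the cAMP response core, on the minus strand of Gpr83, 71 to 67 bases before the start. The window of 6030419C18Rik held none of the motifs, and 73.6% of its bases were G or C, against a median of 52.4% over all windows. Both sequences, from RefSeq, are shown as the upstream sequence of the 2 members whose values moved most alike over the libraries among the 4, with the match in capitals as it reads on the plus strand.
Gpr83, chr9:14860126-14860155, plus strand: ctggagcggagcgCGTCAcgggagcgaaga
6030419C18Rik, chr9:58488353-58488602, plus strand: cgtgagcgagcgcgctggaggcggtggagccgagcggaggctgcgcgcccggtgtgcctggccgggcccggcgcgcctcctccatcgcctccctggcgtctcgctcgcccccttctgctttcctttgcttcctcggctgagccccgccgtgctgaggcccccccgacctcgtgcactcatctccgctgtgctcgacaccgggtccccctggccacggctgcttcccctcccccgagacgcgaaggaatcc
No match says only that these letters are not in these windows.

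Each value below is a normalized CPM, the reads of a gene relative to the library's total after the authors' scaling, and each could be turned back into whole reads. The libraries held 14902330 to 21230050 reads, and 3 reads, taken as the limit of detection per library, were worth 0.133 to 0.190 CPM. In the pituitary, the thyrotroph marker Tshb was at 235 to 593 CPM in WT and 5600 to 8183 in K146Q libraries, and Gh took 10.8% to 20.7% of WT and 6.77% to 8.20% of K146Q reads. Thrb itself was present in every pituitary library, at 97.7 to 106 CPM in WT and 142 to 184 in K146Q mice. The base change itself cannot be seen in values per gene.

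The pituitary RNA of Hapln1, Gpr83 and 6030419C18Rik was lower in every K146Q library than in any WT library, by 15-fold, 10.2-fold and 5.60-fold in the means, and Pira1 had no read in K146Q pituitary. For Hapln1, the link protein, WT mice 1, 2 and 43 had 24.1, 23.5 and 26.0 CPM, whereas K146Q mice 60, 62 and 83 had 1.03, 1.07 and 2.81 CPM. The 3 WT libraries were close together, and the highest K146Q library, mouse 83, still lay far below the lowest WT library. The means were 24.5 ± 1.32 (SD, n = 3) and 1.64 ± 1.01 (SD, n = 3), so that K146Q pituitary held 6.68% of the WT level, and the log2 fold change on the log2(CPM + 0.5) scale was -3.64.

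Gpr83, the receptor, was at 6.72, 6.98 and 9.68 CPM in WT and 0.413, 0.715 and 1.15 CPM in K146Q pituitary. All K146Q libraries were below all WT libraries, with 8 to 23 reads against 122 to 170. The means of 7.79 ± 1.64 and 0.760 ± 0.373 (SD, n = 3 each) gave a K146Q level of 9.76% of WT and a log2 fold change of -2.74. 6030419C18Rik, the synaptic gene, had the highest read numbers of the 4, at 53.1, 70.0 and 60.3 CPM in WT and 8.57, 10.8 and 13.3 CPM in K146Q pituitary. The groups did not overlap, and the means of 61.1 ± 8.46 and 10.9 ± 2.39 (SD, n = 3 each) gave 17.9% of WT and a log2 fold change of -2.45.

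Pira1, the immune receptor, was at 5.83, 2.12 and 2.39 CPM in WT pituitary, which is 131, 37 and 42 reads. All 3 K146Q libraries were listed at 0. The WT mean of 3.45 ± 2.07 (SD, n = 3) was at least 22.5-fold higher than the mean limit of 3 reads per library in the K146Q group, and the fitted log2 fold change of -2.86 depends on the pseudocount. WT mouse 1 lay apart from the other WT mice for this gene. In bulk tissue, fewer cells of a type and less RNA per cell cannot be told apart, and this holds for each of the 4 genes.

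**Figure D1:**
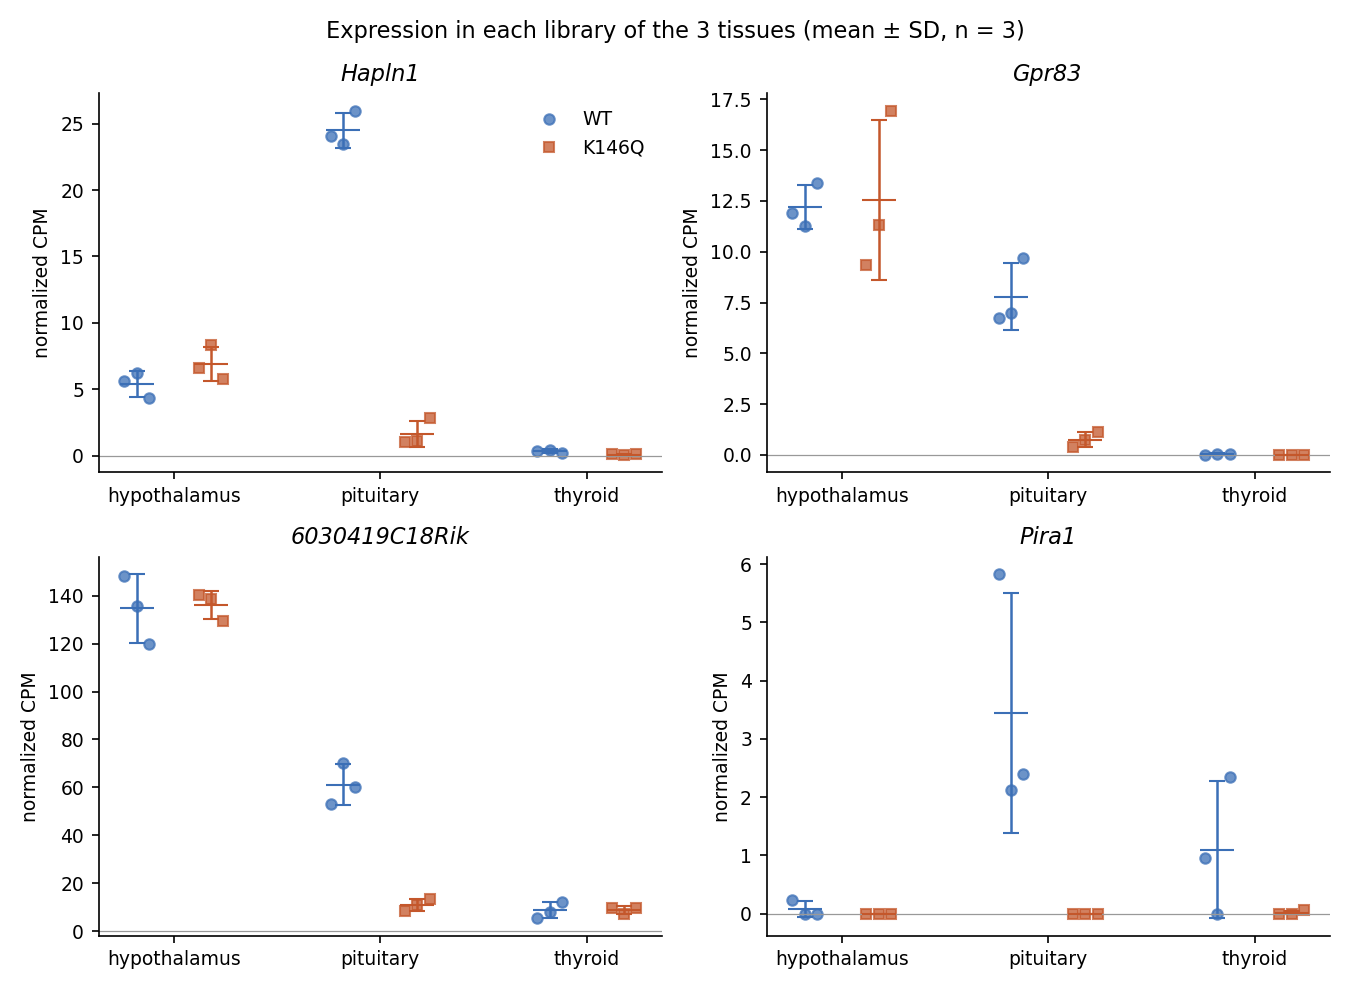
Normalized CPM of each gene (vertical axis, linear, a separate scale for each gene) in the hypothalamus, pituitary and thyroid libraries. Points are single libraries (circles WT, squares K146Q), horizontal bars the mean and whiskers the SD of 3 libraries. In pituitary the WT points of Hapln1 lie between 23.5 and 26.0 and the K146Q points between 1.03 and 2.81, whereas in hypothalamus the genotypes overlap for all 4 genes.

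No overlap of this kind is common in these small groups: in pituitary 14.3% of the 15589 genes tested had all K146Q libraries below all WT libraries. Since the genes were picked for it, nothing is read from the members' count. By limma, with a threshold of 0.05 on the adjusted p, 9.86% of pituitary genes were called. Those above WT made up 6.36% and those below WT 3.5% (991 and 546 genes, or 837 and 879 with totals recomputed without the 10 highest genes). Ranked by log2 fold change among the 530 lower genes that were called, averaged 1 CPM or more and had groups that did not overlap, Hapln1, Pira1, Gpr83 and 6030419C18Rik stood at places 1, 2, 3 and 5. Place 4 was held by Ghsr, the ghrelin receptor gene, at -2.59. The genes just outside were Tmem254c at -2.44 and Syndig1, which encodes a synapse differentiation protein, at -2.43, so that 6030419C18Rik and the next 2 genes were nearly level. Ceacam10 at -2.34, C2cd4c at -2.27 and Shc2 at -2.11 filled the places up to 10.

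**Figure D2:**
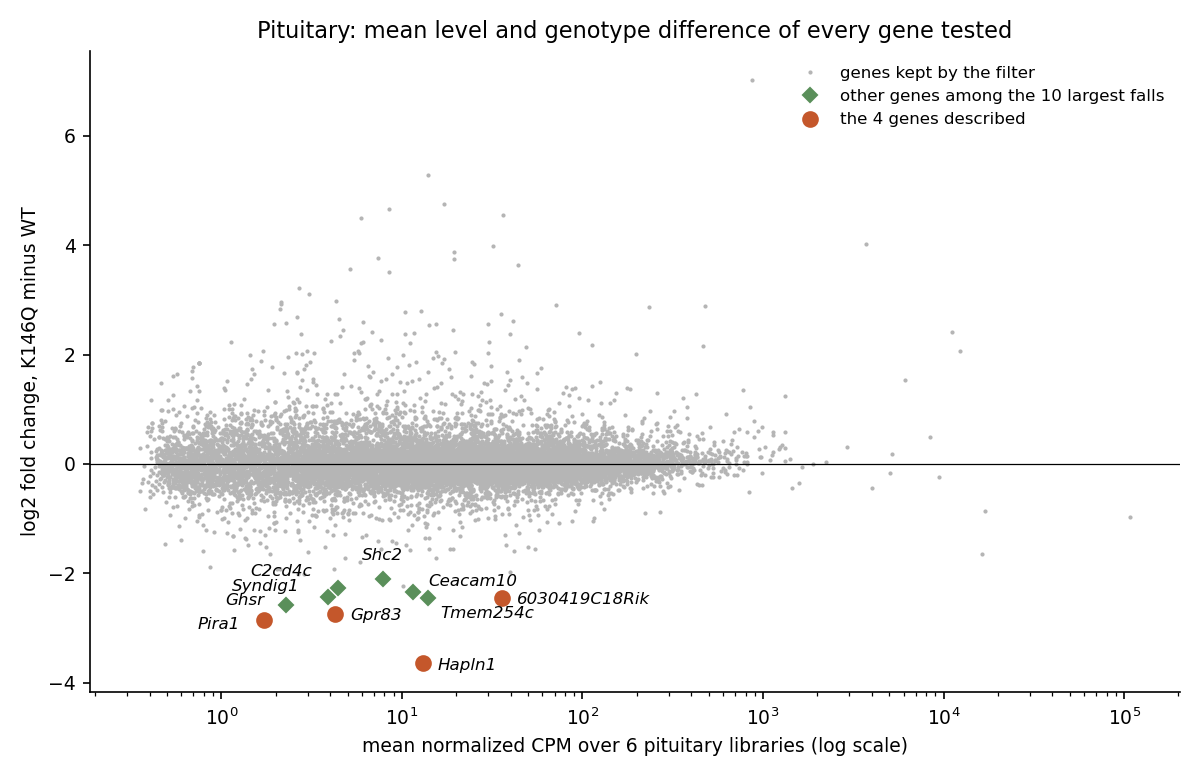
Mean normalized CPM over the 6 pituitary libraries (horizontal axis, log scale) and log2 fold change, K146Q minus WT (vertical axis), for the 15589 genes tested. Circles are the 4 genes and diamonds the other genes among the 10 largest falls. Hapln1 lies lowest at -3.64, and the other 9 lie between -2.86 and -2.11.

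The order among the 4 changed with the treatment of low values. With a pseudocount of 0.1 in place of 0.5, Pira1 was lowest of 14624 genes, Hapln1 stood at place 3, Gpr83 at 6 and 6030419C18Rik at 13. With a pseudocount of 1 the places were 1 for Hapln1, 2 for 6030419C18Rik, 3 for Gpr83 and 7 for Pira1. With edgeR or DESeq2 on the recovered reads, Pira1 was at place 1, Hapln1 at 2, Gpr83 at 4 and 6030419C18Rik at 11.

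In hypothalamus none of the 4 genes differed between the genotypes by the test, and 0% of the 15761 genes tested had an adjusted p under 0.05 by limma (0 genes by edgeR, 9 by DESeq2, and 645 at an unadjusted p under 0.05). Hapln1 was at 5.61, 6.24 and 4.35 CPM in WT and 6.58, 8.31 and 5.81 CPM in K146Q hypothalamus. The groups overlapped, with the higher mean in K146Q mice, and the log2 fold change was 0.33 (95% confidence interval -0.03 to 0.68, adjusted p = 0.998 by limma, exact two-sided permutation p = 0.2). The sign was opposite to that in pituitary. Gpr83 was at 11.9, 11.3 and 13.4 CPM in WT and 9.36, 11.3 and 16.9 CPM in K146Q hypothalamus. The K146Q libraries spread on both sides of the WT range, and the log2 fold change of -0.001 had an interval of -0.40 to 0.39 (adjusted p = 1 by limma, exact permutation p = 1).

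6030419C18Rik was at 148, 136 and 120 CPM in WT and 140, 139 and 129 CPM in K146Q hypothalamus, the highest levels it reached in any tissue. The log2 fold change was 0.02 with an interval of -0.14 to 0.18 (adjusted p = 0.998 by limma, exact permutation p = 0.8), the tightest interval of the 4. Pira1 had 4 reads in WT mouse 1 (0.239 CPM) and none in the other 5 hypothalamus libraries. It was removed by the filter on low values, and without the filter its log2 fold change was -0.19 (interval -0.53 to 0.16, adjusted p = 0.969 by limma, exact permutation p = 1), which is at the limit of detection.

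In thyroid 37.8% of the 15200 genes tested were called by limma, 2992 higher (19.7%) and 2747 lower (18.1%) in K146Q mice (2496 and 3613 with library totals recomputed without the 10 highest genes), and 1 of the 4 passed the filter. 6030419C18Rik was at 5.62, 7.97 and 12.3 CPM in WT and 9.62, 6.99 and 9.67 CPM in K146Q thyroid. The groups overlapped fully, with a log2 fold change of 0.07 (interval -0.56 to 0.70, adjusted p = 0.855 by limma, exact permutation p = 1). Its sign turned to -0.02 with the recomputed totals.

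The other 3 genes were at or near the limit of detection in thyroid and are given from the fit without the filter. Hapln1 had 6, 7 and 3 reads in WT (0.379, 0.443 and 0.1804 CPM) and 2, 1 and 2 reads in K146Q thyroid (0.0991, 0.0588 and 0.117 CPM). All K146Q values were below all WT values, as were those of 25.7% of the 15200 thyroid genes that passed the filter, and the log2 fold change was -0.48 (interval -0.82 to -0.15, adjusted p = 0.0414 by limma, exact permutation p = 0.1, the smallest that 3 against 3 can give). This call was lost in 5 of the 6 fits with 1 mouse left out, those without mouse 1, 2, 60, 62 or 83, with adjusted p from 0.0794 to 0.136. Gpr83 had 1 read each in WT mice 2 and 43 and none in the other 4 libraries, so that no difference was detectable at this depth.

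Pira1 had 15, 0 and 39 reads in WT thyroid (0.947, 0 and 2.35 CPM) and 0, 0 and 1 read in K146Q thyroid. WT mouse 2 was as empty as the K146Q mice, so the groups overlapped, and the log2 fold change was -1.29 (interval -2.58 to -0.01, adjusted p = 0.120 by limma, exact permutation p = 0.4). Without WT mouse 2, the WT library with no read, the value was -1.97 (adjusted p = 0.00497 by limma). With any other mouse left out it ran from -1.35 to -0.71 and was not called (adjusted p from 0.200 to 0.272 by limma). Over all 3 tissues, reads assigned to Pira1 were found in 6 of 9 WT libraries (268 reads) and 1 of 9 K146Q libraries (1 read), a count that includes the pituitary libraries used for the choice. Of the WT reads 210 were from pituitary, 54 from thyroid and 4 from hypothalamus. The libraries of each genotype came from 3 mice and are not 9 replicates.

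**Figure D3:**
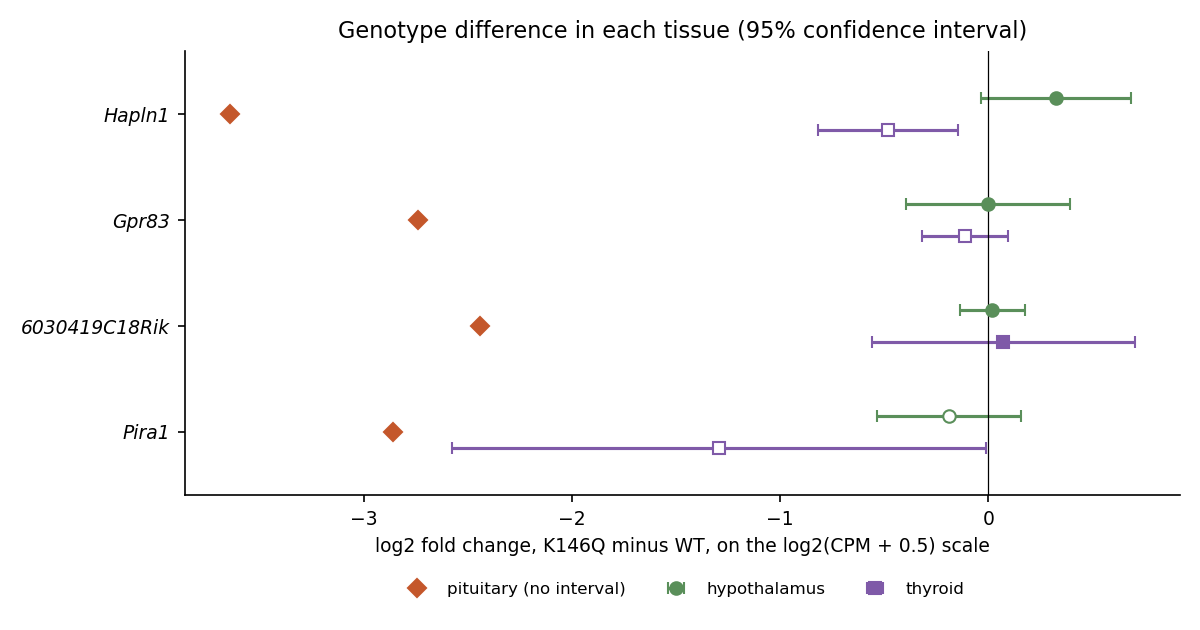
Log2 fold change, K146Q minus WT, on the log2(CPM + 0.5) scale (horizontal axis) for each gene. Circles are hypothalamus and squares thyroid, with 95% confidence intervals from limma and open symbols for genes read from the fit without the filter. Diamonds are the pituitary values that chose the genes, shown without an interval. The hypothalamus intervals all include 0 and their lowest bound is -0.53, while the pituitary values lie between -3.64 and -2.45.

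Whether the genotype difference itself differed between thyroid and hypothalamus was tested first in a joint fit of the 18 libraries, in which 30.8% of 17140 genes were called, 15.6% with a positive and 15.2% with a negative difference. The difference of the 2 log2 fold changes, thyroid minus hypothalamus, was -0.81 for Hapln1 (interval -1.53 to -0.09, adjusted p = 0.0832 by limma), -0.11 for Gpr83 (adjusted p = 0.831) and 0.05 for 6030419C18Rik (adjusted p = 0.919), so that none of these 3 was called. In a fit of the 12 hypothalamus and thyroid libraries alone, added after the data were seen, 30.4% of 16801 genes were called. There Hapln1 was called, at the same -0.81 (interval -1.38 to -0.24, adjusted p = 0.0337 by limma), and Gpr83 (adjusted p = 0.796) and 6030419C18Rik (adjusted p = 0.917) were not. The thyroid side of the Hapln1 value rests on 1 to 7 reads per library. In the fit of 18 libraries the Hapln1 value also passed the threshold without mouse 83 (-0.95, adjusted p = 0.0166 by limma) and under 2 other settings. Pira1 passed the filter of that fit only through the WT pituitary libraries that chose it, since 2 of the 12 other libraries reached 0.5 CPM. From the 12 libraries without the filter its value was -1.11 (interval -2.52 to 0.30, adjusted p = 0.253 by limma). No such test was made against pituitary, whose difference chose the genes.

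The 4 genes had different tissue patterns in WT mice. In the same joint fit 81.9% of genes differed between WT thyroid and WT hypothalamus, 41.9% higher and 40% lower in thyroid, so most genes were called here. The log2 difference, thyroid minus hypothalamus, was -4.55 for Gpr83 (limma, adjusted p = 1.87e-12), with 11.3 to 13.4 CPM in hypothalamus and at most 1 read in a thyroid library. It was -3.95 for 6030419C18Rik (limma, adjusted p = 6.74e-12) and -2.82 for Hapln1 (limma, adjusted p = 6.02e-09). These 3 were also called in the fit of the 12 libraries alone, in which 82.8% of genes were. There Hapln1 and Gpr83 passed the filter only through the 6 hypothalamus libraries, the higher side, so for these genes the call adds no support. Pira1 went the other way, with 1.16 (adjusted p = 0.0378 by limma, from the 12 libraries without the filter, which it did not pass). That value rested on 2 WT thyroid libraries, and without mouse 43 it was 0.49 in the fit of 18 libraries.

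In order of level, Hapln1 was highest in WT pituitary, followed by K146Q and WT hypothalamus, which overlapped, then K146Q pituitary (1.03 to 2.81 CPM), and thyroid last. For Gpr83, K146Q hypothalamus (9.36 to 16.9 CPM), WT hypothalamus and WT pituitary (6.72 to 9.68 CPM) followed one another, and the lowest K146Q hypothalamus library lay below the highest WT pituitary library. K146Q pituitary came next and thyroid was at the limit of detection. For 6030419C18Rik both hypothalamus groups overlapped at 120 to 148 CPM, WT pituitary followed at 53.1 to 70.0, and K146Q pituitary (8.57 to 13.3 CPM) overlapped with both thyroid groups (5.62 to 12.3 CPM). For Pira1, WT pituitary (2.12 to 5.83 CPM) overlapped with WT thyroid (0 to 2.35 CPM), and the other groups were at or near 0.

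The reads of Pira1 belong with those of its relatives, since the copies are so alike. Pira7 had 83, 33 and 0 reads in WT pituitary (3.69, 1.89 and 0 CPM) and none in K146Q pituitary. Pira2 was at 1.25, 0.915 and 0 CPM in WT and 0.155, 0.817 and 0 CPM in K146Q pituitary, and Lilra6 at 2.45, 0.515 and 0.684 against 0.258, 0.459 and 0.0502 CPM. WT mouse 1 was highest for each of the 3. Pirb, the inhibitory receptor, was at 1.26 to 1.65 CPM in WT and 1.29 to 1.81 in K146Q pituitary, ranges that overlapped.

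Summed over 8 genes of this family (Pira1, Pira2, Pira4, Pira6, Pira7, Pira11, Lilra6 and Pirb), the values were 15.8, 7.04 and 6.04 CPM in WT and 2.63, 3.83 and 2.26 CPM in K146Q pituitary. The sums did not overlap, and with Pirb left out they were 14.2, 5.78 and 4.67 against 1.34, 2.40 and 0.451 CPM. Without Pira1 the sums of the other 7 genes were 10.01, 4.92 and 3.65 CPM in WT and 2.63, 3.83 and 2.26 CPM in K146Q pituitary, and there WT mouse 43 fell below K146Q mouse 62. Pira1 made up 36.8%, 30.1% and 39.6% of the family's reads in WT pituitary.

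In thyroid the family sum went the other way, with 11.1, 6.07 and 11.6 CPM in WT and 23.6, 24.9 and 22.2 CPM in K146Q mice. Most of it was Pirb, at 4.56 to 8.65 CPM in WT and 17.7 to 20.6 in K146Q thyroid, and all its K146Q values lay above all WT values, as for 26.6% of genes in that tissue (log2 fold change 1.46, adjusted p = 0.00210 by limma). Pira2, the near copy of Pira1, rose as well, by 1.81 (adjusted p = 0.00221 by limma), from 0 to 0.380 CPM in WT to 1.52 to 2.47 in K146Q thyroid, and was called in the 3 fits with 1 mouse left out in which it passed the filter. All its WT values were under the filter of 0.5 CPM, so it was tested only because the K146Q libraries were high. Its calls therefore add no support to the rise. Hypothalamus held 8 to 12 reads of the whole family per library.

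**Figure D4:**
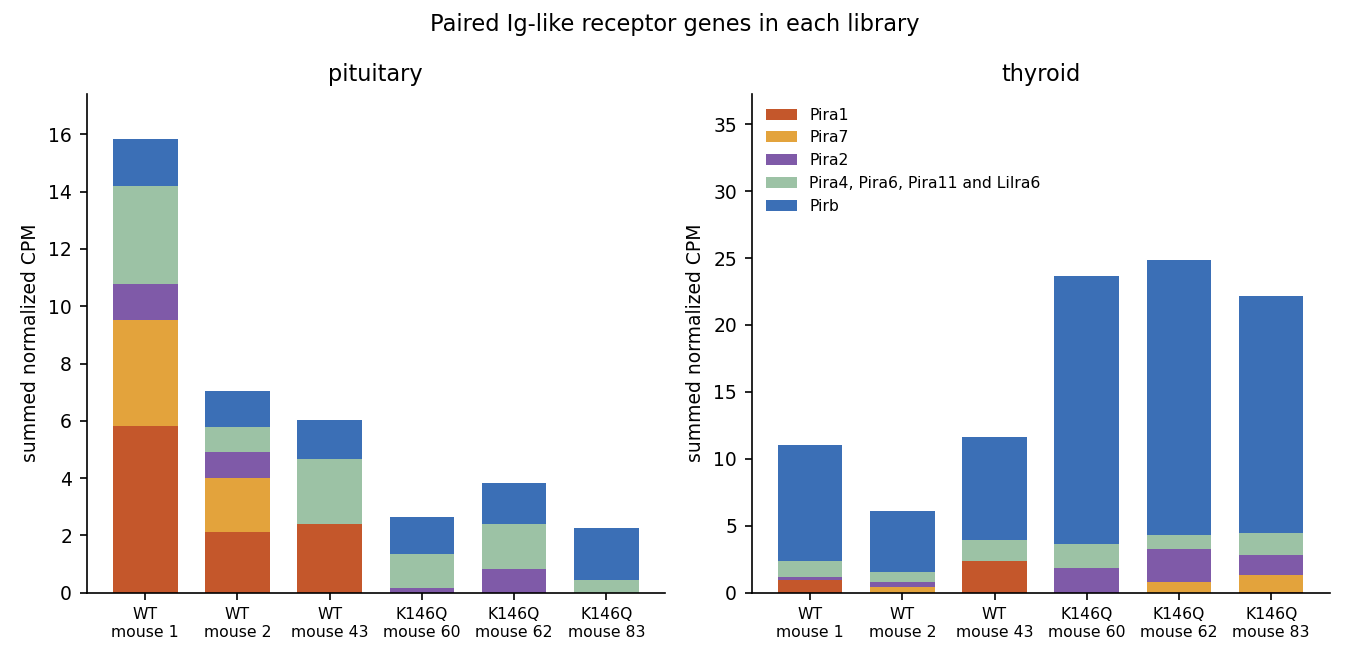
Normalized CPM of 8 paired immunoglobulin-like receptor genes (vertical axis, from 0), stacked for each pituitary and thyroid library. Colours mark Pira1, Pira7, Pira2, Pirb and the sum of Pira4, Pira6, Pira11 and Lilra6. WT pituitary libraries reach 6.04 to 15.8 and K146Q pituitary libraries 2.26 to 3.83, whereas K146Q thyroid libraries (22.2 to 24.9) lie above WT (6.07 to 11.6).

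The partners of each member were taken from lists written with earlier results known. In pituitary the median log2 fold change of all genes tested was -0.009, against which the list medians can be read. The pituitary counts of the pathway lists were the same with the recomputed totals.

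Of 23 genes of the hyaluronan and proteoglycan matrix in which Hapln1 works, 18 were tested in pituitary, 3 rose, 1 fell and 14 were not called, with a list median of 0.15 (of all pituitary genes 6.36% were higher and 3.5% lower). Hapln4, another link protein gene, rose by 1.46 (adjusted p = 0.0330 by limma), from 9.52 to 28.4 CPM in WT to 32.9 to 59.96 in K146Q pituitary, opposite in direction to Hapln1. Cd44, the hyaluronan receptor, rose by 1.68 (adjusted p = 0.00192) and Tnr, a tenascin of perineuronal nets, by 0.80 (adjusted p = 0.0249). Acan, the proteoglycan aggrecan that link protein binds, fell by 0.83 (adjusted p = 0.0379), from 0.858 to 1.201 CPM to 0.206 to 0.408 CPM. All its K146Q values were under the filter of 0.5 CPM, so it was tested only because the WT libraries were high. Its call therefore adds no support to the fall. Cd44 was called with any mouse left out, Tnr in 3 of those 6 fits and Hapln4 in 2. Acan was called in none of the 3 in which it passed the filter. Hapln2 and Hapln3 were at or below 0.5105 CPM in all pituitary libraries and were not tested.

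Of 21 PIR and LILR receptors and signalling partners, 14 were tested in pituitary, 4 rose and none fell, with a list median of 0.36 (again against 6.36% and 3.5% of all genes). Fcer1g, the signalling chain of Pira1, rose by 0.74 (adjusted p = 0.0141 by limma), from 4.35 to 4.72 CPM in WT to 6.87 to 9.55 CPM in K146Q pituitary, while Pira1 itself had no read there. Tyrobp, a related adaptor, rose by 1.03 (adjusted p = 0.00613), Lilra5 by 0.93 (adjusted p = 0.0207) and the kinase gene Lyn by 0.44 (adjusted p = 0.0280). Tyrobp was called in all 6 fits with 1 mouse left out, Fcer1g in 5, Lilra5 in 3 and Lyn in 1. Markers of myeloid cells, which use these receptors, moved with them: 6 of 7 tested were higher, and their summed level was 100 to 114 CPM in WT and 161 to 237 in K146Q pituitary. Of 6 lymphoid markers 2 were tested and 1 was higher (Ptprc), with sums of 6.55 to 7.74 CPM in WT and 8.23 to 14.9 CPM in K146Q mice. The part of these cells in the Fcer1g and Tyrobp result was not tested, and Pira1 moved the other way.

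Of 9 genes of proSAAS peptides and ghrelin receptor partners, chosen around Gpr83, 7 were tested in pituitary, 1 rose and 1 fell, with a list median of 0.08 (against 6.36% and 3.5%). Pcsk1, a convertase that cuts prohormones, rose by 1.2 (adjusted p = 2.80e-04 by limma), from 211 to 225 CPM to 438 to 611 CPM. Ghsr, whose receptor has been reported to pair with GPR83, fell by 2.59 (adjusted p = 0.00507 by limma), and it was itself picked by the same pituitary ranking. It is the 1 gene counted as falling, so neither its call nor that count adds support to the fall of Ghsr. It was at 6.58, 2.63 and 3.42 CPM in WT and 0.0516, 0 and 0.953 CPM in K146Q pituitary, where mouse 62 had no read. Pcsk1n, the precursor of PEN, had a log2 fold change of 0.09 (adjusted p = 0.575) and Mrap2 one of 0.01 (adjusted p = 0.973). Of 11 glucocorticoid response genes, none rose and 1 fell in pituitary (list median -0.28, and 3.5% of all genes lower), Cdkn1a by 0.91 (adjusted p = 0.0380), a call that held in 1 of the 6 fits with 1 mouse left out. The receptor gene Nr3c1 had a value of -0.02 (adjusted p = 0.948).

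In hypothalamus 0 genes of the 4 lists were called. Ghsr there was at 5.79, 6.30 and 5.34 CPM in WT and 4.71, 4.203 and 4.68 CPM in K146Q mice, with all K146Q below all WT values, as for 4.95% of genes in that tissue (4.2% had the opposite order), and a log2 fold change of -0.33 (adjusted p = 0.998 by limma). In thyroid 11 of the 14 tested PIR and LILR genes rose (10 with the recomputed totals), Fcer1g among them by 1.52, and none fell, against 19.7% of all thyroid genes higher and 18.1% lower. Pira2 is 1 of the 11, and its call adds no support, as said above. All 7 myeloid markers tested rose in thyroid (summed level 160 to 245 CPM in WT and 487 to 571 in K146Q mice). Of 6 tested genes of the proSAAS list 4 fell in thyroid (Pcsk2 at -3.68, Pcsk1 at -3.61, Pcsk1n at -2.28 and Cpe at -1.5), of 20 matrix genes 8 rose and 4 fell, and of 11 glucocorticoid response genes 2 rose and 3 fell, beside 37.8% of all genes called. Of the matrix genes, Has1 (higher) and Tnr (lower) passed the filter in 3 of the 6 fits with 1 mouse left out, as Pira2 did. Their calls therefore add no support. All 4 adipose markers fell in thyroid with the proSAAS genes (summed level 601 to 650 CPM in WT and 77.1 to 151 in K146Q mice). Of 3 tested posterior lobe and neural markers 1 fell, Snap25 (-1.72, adjusted p = 0.00503 by limma), and 2 were not called. The part of adipose, neural or any other cells in the proSAAS values was not tested.

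**Figure D5:**
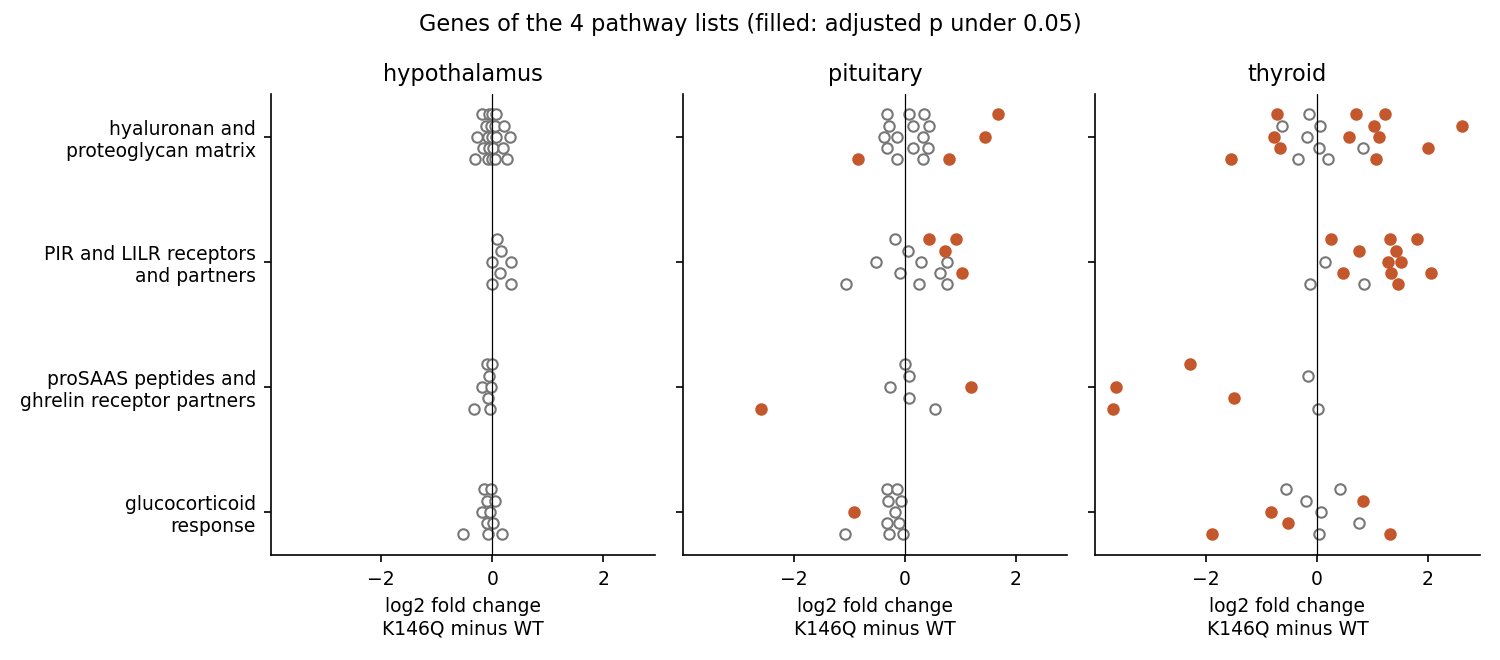
Log2 fold change, K146Q minus WT (horizontal axis), of the tested genes of 4 lists in each tissue. Filled points have an adjusted p under 0.05 by limma, and the vertical spread within a list only separates the points. In hypothalamus no point is filled, and in thyroid 11 of the 14 PIR and LILR genes are filled and lie to the right of 0.

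Some hormone cell markers also differed between the genotypes in pituitary, in both directions, and others did not. Of all pituitary genes tested, 6.36% were called higher and 3.5% lower. The 3 thyrotroph markers (Tshb, Trhr and Dio2) summed to 328 to 708 CPM in WT and 6357 to 9199 CPM in K146Q pituitary, and all 3 were called higher. The 2 lactotroph markers, Prl and Drd2, summed to 19165 to 30747 CPM in WT and 7028 to 8743 CPM in K146Q mice, nearly all of it Prl, and the somatotroph markers to 97899 to 213197 and 62593 to 75481 CPM. Of these, Prl fell by 1.65 (adjusted p = 6.03e-04 by limma) and Ghrhr by 0.48 (adjusted p = 0.0116), while Gh had a value of -0.97 (adjusted p = 0.0737) and Drd2 one of -0.06 (adjusted p = 0.7505). None of the 3 gonadotroph, 3 corticotroph, 3 melanotroph and 4 stem and folliculostellate markers was called. Of 6 posterior lobe and neural markers 1 was called, Snap25, higher by 0.25 (a call lost with the recomputed totals), and their sum was 296 to 326 CPM in WT and 355 to 364 CPM in K146Q pituitary. The part of any of these cell types in the values of the 4 genes was not tested.

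The genes whose log2(CPM + 0.5) values over the 18 libraries were most like those of each member were found among 15440 genes. The 18 points share 3 tissues and 2 genotypes, so the values mostly describe tissue differences, and no test is attached. Gpr83 was most like Syndig1 (Pearson r = 0.985), C2cd4c (0.981) and Pipox (0.978). 6030419C18Rik was most like the same Syndig1 (0.983) and C2cd4c (0.974), followed by Gpr83 (0.973). The low K146Q pituitary values of Gpr83, 6030419C18Rik, Syndig1 and C2cd4c follow from the choice, since they were ranked by it on 6 of the 18 libraries. A high r among them is partly fixed by that. Beside it they had high values in hypothalamus, middle values in WT pituitary and low values in thyroid. Syndig1 was at 20.1 to 22.8 CPM in WT hypothalamus, 5.65 to 8.15 in WT pituitary and 0.516 to 1.30 in K146Q pituitary. Syndig1 and C2cd4c are also among the 10 largest pituitary falls, and Pipox, with a pituitary log2 fold change of -1.52, is not.

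Hapln1 was most like Kcng1, a potassium channel subunit gene (r = 0.971), Prr16 (0.936) and Rtn4rl2 (0.936), and each of these was highest in WT pituitary. Kcng1 was at 5.34 to 8.32 CPM there and 0.774 to 2.76 CPM in K146Q pituitary, against 2.44 to 4.18 CPM in WT hypothalamus. Pira1 had no close likeness: its 3 best genes were Zranb1 (r = 0.828), Mbd1 (0.795) and Kmo (0.779), and its r with the other 3 members was 0.431 for Hapln1, 0.106 for Gpr83 and 0.053 for 6030419C18Rik. Kmo, which encodes kynurenine 3-monooxygenase, was at 3.36 to 5.95 CPM in WT and 0.408 to 1.15 CPM in K146Q pituitary.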

How the data were processed

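RNA-Seq libraries of hypothalamus, pituitary and thyroid from 3 WT and 3 K146Q mice were grouped by their labels. The authors deposited, per tissue, normalized CPM values (used here as a signal per gene and library) of 24054 genes, and the submitters' processing notes name bcl2fastq 2.17, Bowtie2 2.1.0, RSEM 1.2.15 and mm10. Annotation and strand setting are not given in the sources used here. The authors' own columns (log2 fold change, average log2 level, likelihood ratio, p-value and FDR) were not used. All of the 432972 values (100%) were whole multiples of 1 read within 0.01. The scaling factors behind them differed by at most 0.0898% from TMM factors computed over the 18 libraries together, so that levels were compared across tissues. Symbols turned into dates (27) were left out of joint fits.

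Genotypes were compared within a tissue with limma 3.58.1 (R 4.3.3) on log2(CPM + 0.5) with a mean-variance trend, keeping genes that reached 0.5 CPM in 3 or more libraries. P-values were adjusted by Benjamini-Hochberg, and an adjusted p under 0.05 was called. A member removed by the filter was read from the fit without it. The joint fit had 6 group means over 18 libraries, and was repeated on the 12 hypothalamus and thyroid libraries. edgeR 4.0.16 and DESeq2 1.42.0 on recovered reads were alternatives, beside other pseudocounts (0.1 and 1), filters, scalings, no trend and each mouse left out. Exact two-sided permutation tests used 20 arrangements. Scripts were tested on simulated data. Intervals cover the spread between 3 libraries, and the limit of 3 reads covers counting error only. No pair of replicates was alike within counting error.

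The 3 mice of a genotype gave all 3 tissues, and libraries of 1 number were taken as 1 mouse. Their deviations from the group means correlated at -0.0134 to 0.106 between hypothalamus and thyroid, and genotypes share no number.

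The members and lists were chosen with earlier results of these data known. Besides the 4 members and the list genes called in pituitary, the text names the 10 largest pituitary falls (adjusted p under 0.05, mean of at least 1 CPM, no overlap), the 3 genes of highest correlation with each member and, in each other tissue, at most 4 genes of each list. Prl, Drd2, Ghrhr, Pira2, Pira7, Lilra6, Pirb and the uncalled list genes were named after their values were seen. Pira5, Lilrb3, Lilrb4a and Adgre1 of the lists did not match a symbol in the tables. Positions and upstream windows came from RefSeq (GRCm38.p6), in which all 4 members matched, 6030419C18Rik as Insyn1, and transcripts from GENCODE M21.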

Additional observations from a re-analysis of the deposited data

How the results depend on the processing

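In pituitary the alternatives that gave a value kept the direction of the 4 genes; a filter of 1 CPM in every library removed Gpr83 and Pira1. The log2 fold change of Gpr83 was -3.27 with a pseudocount of 0.1, -2.33 with 1, -3.33 with edgeR and -3.35 with DESeq2, and that of Pira1 was -5.00, -2.06, -9.08 and -8.53. With each mouse left out, Hapln1 ran from -4.01 to -3.45, Pira1 from -3.10 to -2.46, Gpr83 from -2.96 to -2.53 and 6030419C18Rik from -2.60 to -2.29. The genes called in pituitary ran from 625 (without mouse 60) to 1345, with 752 without mouse 62, and edgeR called 1530. In hypothalamus they ran from 0 to 6 (without mouse 83), with 9 by DESeq2, in thyroid from 3602 (without mouse 62) to 5106, and in the test of thyroid minus hypothalamus from 3476 (without mouse 62) to 4680.

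Values near 0 turned sign. In hypothalamus Gpr83 was 0.000297 with a pseudocount of 1, 0.000814 with median-of-ratios rescaling and 0.0432 with edgeR and 0.0426 with DESeq2, and with each mouse left out it ran from -0.23 to 0.18 and 6030419C18Rik from -0.0612 to 0.0924. In thyroid 6030419C18Rik was -0.0173 with totals without the 10 highest genes and ran from -0.18 to 0.35 with each mouse left out. There Hapln1 ran from -0.62 to -0.39, Pira1 from -1.97 to -0.71 and Gpr83 from -0.17 to -0.08. For the genotype difference in thyroid minus hypothalamus, 6030419C18Rik was -0.0346 without the 10 highest genes and -0.0172 with edgeR, and ran from -0.27 to 0.41, Gpr83 from -0.29 to 0.12, Hapln1 from -0.95 (adjusted p = 0.0166 by limma without mouse 83) to -0.64 and Pira1 from -1.69 to -0.43. Hapln1 passed the threshold at -1.48 with a pseudocount of 0.1 (adjusted p = 0.0223 by limma), at -2.19 with DESeq2 (adjusted p = 0.0319) and at -0.81 without the pituitary libraries (adjusted p = 0.0337 by limma), a setting chosen after seeing the data. The cause was not tested. For WT thyroid minus WT hypothalamus Pira1 was 3.72 by DESeq2 (adjusted p = 0.178) and ran from 0.49 to 1.74.

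With the mouse number as a block no call on the 4 genes changed. Thyroid minus hypothalamus, the block gave 5495 genes called in place of 5281 and an adjusted p of 0.0959 by limma for Hapln1. No paired analysis was possible between genotypes because they share no number. With 3 mice per group and few reads for Pira1 and for Hapln1 and Gpr83 in thyroid, small differences could not be seen.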
